A study of Homo sapiens with 12 samples.

Results

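The genes described here are 10 members of 3 protein families: the annexins ANXA1, ANXA2, ANXA3, ANXA5 and ANXA6, the galectins LGALS1 and LGALS3, and the S100 genes S100A6, S100A10 and S100A11. They are 10 of the 36762 gene symbols in each count table, and they were picked because earlier results of these same data showed them higher in incipient mesoderm-like cells (iMeLC) than in human embryonic stem cells (hESC). Their change with stage is therefore given as a description, with no test. All libraries came from UCLA1, a human embryonic stem cell line. The CTRL hESC and CTRL iMeLC groups are control lines. The CDKO hESC and CDKO iMeLC groups are lines in which the catalytic domain of TET1, an enzyme that oxidises 5-methylcytosine at CpG sites in DNA, had been knocked out. iMeLC are the short intermediate made from stem cells on the way to primordial germ cell-like cells. Every group comprised 3 libraries, 12 over the 4 groups, named by line in iMeLC (CTRL1101, CTRL1106, CTRL1109, CDKO1102, CDKO1105 and CDKO1312) and by the column numbers 1 to 3 in hESC. The labels name the same 6 lines at both stages, but the hESC columns do not say which line each is, so lines could not be matched and the fit over both stages treats their libraries as independent. What sets lines of one genotype apart was not given in the sources used here.

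Annexins are cytosolic proteins that bind acidic phospholipids of membranes when calcium is present, and they take part in membrane repair, vesicle traffic and the anchoring of actin to membranes. S100 proteins are small calcium-binding proteins that act mostly by gripping partners, annexins among them: S100A10 pairs with ANXA2 in a complex at the plasma membrane, and S100A11 binds ANXA1. Galectins are lectins that bind beta-galactoside sugars on cell-surface and matrix glycoproteins and leave the cell without a signal peptide. All 3 families are abundant in mesenchymal and epithelial cells that adhere and migrate.

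On GRCh38 (GENCODE release 29) all 10 were annotated as protein-coding. The S100 genes lay on chromosome 1, S100A10 at 151982915 to 151994390, S100A11 at 152032506 to 152047907 and S100A6 at 153534599 to 153536244, each on the minus strand. ANXA3 (78551519 to 78610451, plus strand) and ANXA5 (121667955 to 121697113, minus strand) lay on chromosome 4. ANXA1 lay on chromosome 9 (73151757 to 73170393, plus strand), ANXA2 on chromosome 15 (60347134 to 60402883, minus strand) and ANXA6 on chromosome 5 (151100712 to 151157882, minus strand). LGALS1 lay on chromosome 22 (37675608 to 37679806, plus strand) and LGALS3 on chromosome 14 (55124110 to 55145413, plus strand). Exons of S100A6 overlapped those of BX470102.1 on the opposite strand, and 3 annotated pseudogenes carry the name of ANXA2 and 2 that of S100A11, none of which had a row in the tables. How reads shared by such copies were counted was not given in the sources used here, so the counts of these 3 genes are uncertain.

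Promoter sequence from RefSeq (GRCh38.p14, 250 bases before to 50 after the start) was found for 9 of the 10 genes, LGALS1 being without an entry. Only the first listed start of each gene was used. For ANXA2, ANXA3, LGALS3, S100A6, S100A10 and S100A11 all 300 bases lay inside the gene span given above. Some annotated transcripts of these genes thus start further upstream, and the sequence before those starts was not read. ANXA1 and ANXA2 are shown because ANXA1 was the only one of the 9 without a CpG, the site at which TET1 acts, and ANXA2 was CpG-rich, while both were far higher in iMeLC. Each stretch lies before the start and outside annotated exons, and capitals mark CpG dinucleotides. The ANXA1 stretch is chr9:73151615-73151756 on the plus strand, from 250 to 109 bases before the start. The ANXA2 stretch is chr15:60398044-60398236 on the minus strand, from 250 to 58 bases before the start.
ANXA1: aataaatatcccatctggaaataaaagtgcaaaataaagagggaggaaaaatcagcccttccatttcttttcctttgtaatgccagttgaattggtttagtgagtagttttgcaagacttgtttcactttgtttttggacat
ANXA2: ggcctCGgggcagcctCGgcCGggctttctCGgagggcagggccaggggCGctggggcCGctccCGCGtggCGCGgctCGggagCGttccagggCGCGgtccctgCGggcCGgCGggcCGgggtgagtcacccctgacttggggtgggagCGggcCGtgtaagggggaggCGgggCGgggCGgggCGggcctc
The ANXA1 stretch held 0 CpG in 142 bases and 33.8% G and C, and the ANXA2 stretch held 24 CpG in 193 bases and 81.3% G and C. Over the full 300 bases ANXA1 again held 0 CpG. In the other 8 promoters the ratio of observed to expected CpG ran from 0.758 (ANXA6) to 0.87 (ANXA3), against a median of 0.58 over 27305 promoters of the same length. DNA methylation was not measured in these libraries.

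Motifs were searched on both strands of the same 300 bases. TATAAA, the TATA box, was found in ANXA1 and ANXA2, starting 31 bases before the start in each, and in 12% of all promoters. GGGCGG, the GC box bound by SP1, was found in 7 of 9 (all but ANXA1 and ANXA3) and in 44.6% of all promoters. TGANTCA, the letters bound by AP-1, was found in ANXA2 alone of the 9, 127 bases before the start and within the stretch printed above, and in 7.76% of all promoters. CACGTG, an E-box, was found in ANXA6 alone (7.43% of all promoters) and GGAATG, the letters bound by TEAD factors, in none of the 9 (14% of all promoters). No motif other than GGGCGG was thus held by more than 2 of the promoters.

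The hESC libraries totalled 12517593 to 18855099 counts, and the iMeLC libraries 52121702 to 109479071. Levels are given as CPM, the usual depth-scaled count, with library sizes scaled by TMM over all 12 libraries. TET1 was counted at 290.4 to 339 CPM in CTRL hESC, 335 to 396 CPM in CDKO hESC, 289 to 322 CPM in CTRL iMeLC and 304 to 356 CPM in CDKO iMeLC. The difference was 0.25 on the log2 scale (SE 0.09, edgeR adjusted p = 0.209) in hESC and 0.09 (SE 0.09, edgeR adjusted p = 0.577) in iMeLC. Those counts cover the whole gene and do not show whether its catalytic domain was lost. Stem cell markers summed to 6533 to 7833 CPM in hESC and 4052 to 5105 CPM in iMeLC. iMeLC markers such as TBXT, EOMES and MIXL1 summed to 41.4 to 124 CPM in CTRL hESC. In CTRL iMeLC they summed to 361 to 1410 CPM, and in CDKO iMeLC to 1780 to 2165 CPM. None of the 10 counted markers was at 0 throughout a group. The gap between the iMeLC sums rested largely on CER1, which averaged 190.1 CPM in CTRL iMeLC and 882.3 CPM in CDKO iMeLC. TBXT averaged 58.25 and 59.47 CPM in the same order, and SP5 189.8 and 171.3 CPM. The fitted difference between genotypes in iMeLC was positive for 7 of these markers and negative for 3. CDKO hESC 3 held 587 CPM of the iMeLC markers and 523 CPM of definitive endoderm markers, against 95.9 CPM and 46.9 CPM in CDKO hESC 1 and 139 CPM and 63.8 CPM in CDKO hESC 2. CER1 stands in both lists, so the sums are not independent. It held 358 CPM of each sum in CDKO hESC 3, 31.0 CPM in CDKO hESC 1 and 43.6 CPM in CDKO hESC 2. A pair of libraries stood apart for the genes described here, CTRL1101 in iMeLC and CTRL hESC 3, and several but not all results that rest on them are given with and without them.

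All 10 genes were higher in iMeLC than in hESC in both genotypes, with no overlap between the libraries of the 2 stages in any of them. Over all 20262 genes tested, 30.6% were higher without overlap in CTRL and 36.1% in CDKO. The median log2 fold change of the 10 was 3.45 in CTRL and 4.06 in CDKO, beside -0.01 and -0.08 over all genes. The change was larger in CDKO for 7 of 10 genes and for 48.3% of all genes. Without CTRL hESC 3 it was larger in CDKO for 10 of 10, and without CTRL1101 for 9 of 10. The share over all genes is not given for those fits. The smallest changes were those of S100A6 in CTRL (4.22-fold) and S100A11 in CDKO (4.19-fold), and the largest were those of ANXA3 in CTRL (30.8-fold) and LGALS1 in CDKO (109-fold). A log2 change of at least 2 was reached by 10 of 10 in each genotype and by 4.08% and 5.44% of all genes, but the genes were picked on this contrast, so nothing follows from that count. S100A6 in CTRL reached it only with CTRL1101 included. The 2 stages came in separate tables of different date and depth, so stage and table cannot be told apart. In bulk RNA, a change in the share of cells that make a transcript and a change in RNA per cell cannot be told apart either.

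**Figure D1:**
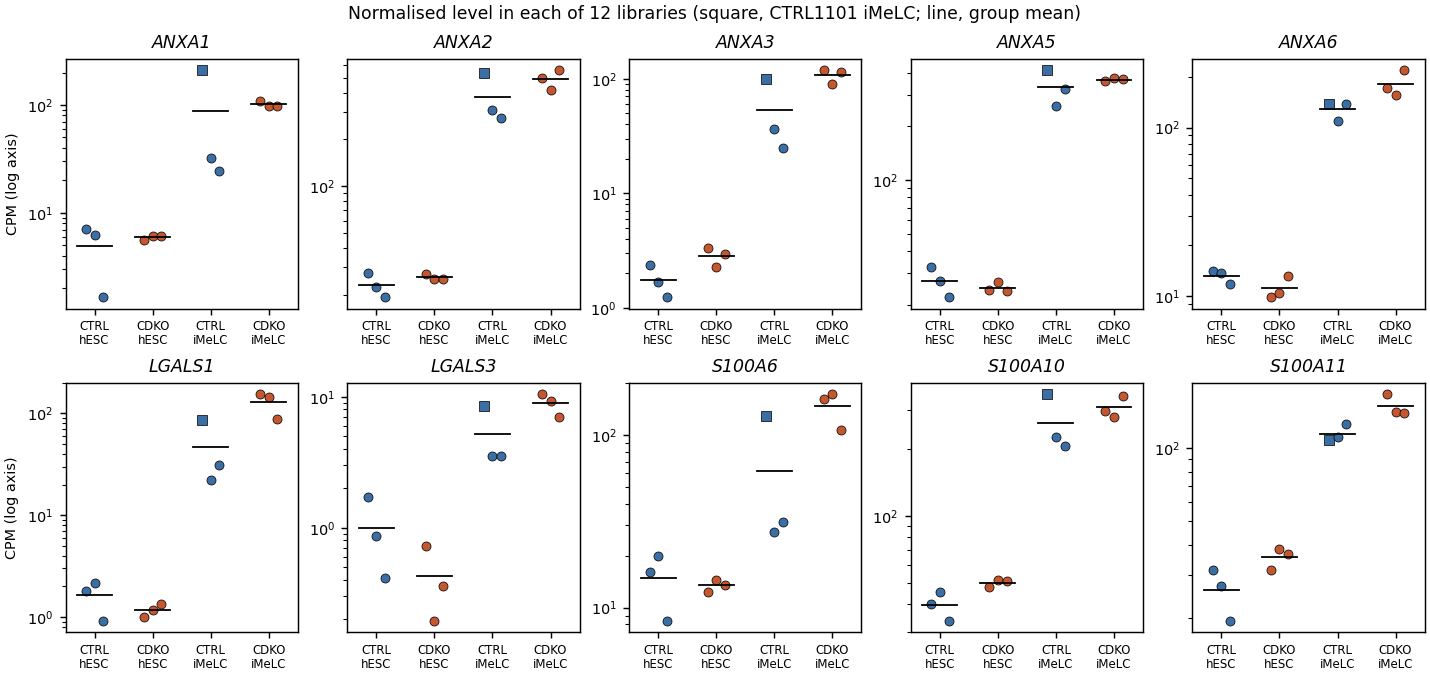
Level of each of the 10 genes in the 12 libraries, in CPM on a log axis, 1 panel a gene. Points are libraries, lines are group means and the square is CTRL1101. In every panel all 6 iMeLC libraries lie above all 6 hESC libraries, and CTRL1101 is the highest CTRL iMeLC library in 9 of 10 panels, the exception being S100A11.

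ANXA2, the annexin that pairs with S100A10 and links membranes to actin, was the most counted of the 10 in CDKO iMeLC. CTRL hESC 1 to 3 held 27.8, 22.3 and 19.3 CPM of it, and CDKO hESC 1 to 3 held 27.1, 25.2 and 25.4 CPM. CTRL1101, CTRL1106 and CTRL1109 held 535, 308 and 273 CPM in iMeLC, and CDKO1102, CDKO1105 and CDKO1312 held 493, 415 and 556 CPM. CTRL1101 lay inside the CDKO range and the other CTRL libraries below it. ANXA2 thus changed with stage by 4.01 on the log2 scale (SE 0.24) in CTRL and 4.24 (SE 0.24) in CDKO.

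ANXA1, a substrate of growth factor receptor kinases known for damping inflammation, was the least even of the 10 across CTRL lines. Its levels were 7.03, 6.22 and 1.65 CPM in CTRL hESC 1, 2 and 3, beside 5.63, 6.13 and 6.15 CPM in CDKO hESC 1 to 3. Among iMeLC libraries CTRL1101 held 209 CPM, CTRL1106 32.6 CPM and CTRL1109 24.6 CPM, beside 108, 98.9 and 97.2 CPM in the CDKO libraries. CTRL1101 lay above all CDKO libraries and the other CTRL lines below them all. The highest CTRL iMeLC library was thus 8.52 times the lowest, while the CDKO iMeLC libraries spanned 1.12 times. The stage change of ANXA1 was 4.18 (SE 0.75) in CTRL and 4.08 (SE 0.74) in CDKO, and leaving out CTRL1101 brought the CTRL value to 2.497.

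ANXA3, an annexin with phospholipase-inhibiting and calcium-binding activity in the cytosol, was scarce in hESC. The CTRL hESC libraries held 2.36, 1.67 and 1.24 CPM, and CDKO hESC libraries 3.32, 2.29 and 2.97 CPM. After induction ANXA3 measured 99.8 CPM in CTRL1101, 36.2 CPM in CTRL1106 and 24.9 CPM in CTRL1109, and at 118, 89.7 and 113 CPM in the CDKO libraries. CTRL1101 lay again inside the CDKO range. The stage change of ANXA3 was 4.95 (SE 0.49) in CTRL, or 4.09 without CTRL1101, and 5.24 (SE 0.48) in CDKO.

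ANXA5, which coats exposed phosphatidylserine and serves as the standard stain for it, and ANXA6, the largest annexin, which organises membranes rich in cholesterol, were the annexins with the narrowest range among CTRL iMeLC lines, the highest library being 1.58 and 1.28 times the lowest. Among CDKO iMeLC lines ANXA6 had the widest range of the 5 annexins, 1.41 times. ANXA5 stood at 22.0 to 32.6 CPM in CTRL hESC and 23.7 to 26.8 CPM in CDKO hESC. Its iMeLC levels were 412 CPM in CTRL1101, 261 CPM in CTRL1106 and 323 CPM in CTRL1109, with 359.8, 371 and 367 CPM among CDKO lines. ANXA6 stood at 11.7 to 14.01 CPM in CTRL hESC and 9.82 to 13.1 CPM in CDKO hESC. ANXA6 in iMeLC reached 139, 109 and 137 CPM among CTRL lines and 171, 155 and 219 CPM among CDKO lines, so the CDKO libraries lay above all CTRL libraries. These annexins changed with stage by 3.61 (SE 0.17) and 3.87 (SE 0.17) for ANXA5 and 3.29 (SE 0.16) and 4.03 (SE 0.17) for ANXA6, in CTRL and CDKO.

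LGALS1 encodes galectin-1, a lectin that cross-links integrins, laminin and fibronectin. Its levels in hESC were among the lowest of the set, with 1.81, 2.17 and 0.917 CPM among CTRL libraries and 1.01, 1.17 and 1.33 CPM among CDKO libraries. In iMeLC, CTRL1101 held 86.9 CPM, CTRL1106 22.2 CPM and CTRL1109 31.4 CPM, against 155, 143 and 87.7 CPM in CDKO1102, CDKO1105 and CDKO1312. CTRL1101 lay just under CDKO1312, the lowest CDKO library. The stage change of LGALS1 was 4.85 (SE 0.52) in CTRL, or 4.01 without CTRL1101, and 6.76 (SE 0.57) in CDKO. The difference between them, CDKO minus CTRL, was 1.91 (SE 0.78), or 2.69 without CTRL1101.

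LGALS3 encodes galectin-3, a lectin of the cytosol, nucleus and cell surface that also gathers on damaged lysosomes. It had the lowest mean CPM of the 10 in each of the 4 groups and rested on few reads in hESC. The hESC libraries held 31, 17 and 9 counts in CTRL and 10, 4 and 7 counts in CDKO, or 1.70, 0.859 and 0.413 CPM and 0.722, 0.195 and 0.359 CPM. The iMeLC levels were 8.46 CPM in CTRL1101, 3.502 CPM in CTRL1106 and 3.501 CPM in CTRL1109, with 10.5, 9.24 and 7.003 CPM among CDKO lines. The change with stage was 2.40 (SE 0.50) in CTRL and 4.46 (SE 0.57) in CDKO, a difference of 2.07 (SE 0.76).

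S100A6, or calcyclin, binds CACYBP and ANXA2 among others. CTRL hESC 1 to 3 held 16.1, 19.9 and 8.395 CPM of it, and CDKO hESC 12.4, 14.6 and 13.6 CPM. Its iMeLC levels reached 128 CPM in CTRL1101, 27.4 CPM in CTRL1106 and 31.2 CPM in CTRL1109, with 162, 173 and 107 CPM among CDKO lines. The change with stage in CTRL, 2.08 (SE 0.51), was 0.95 without CTRL1101. In CDKO it was 3.44 (SE 0.54).

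S100A10 is the partner of ANXA2, and S100A11 binds ANXA1 and ANXA2. S100A10 had the highest mean CPM of the 10 in both hESC groups, and in CDKO these were the genes with the smallest change. S100A10 measured 40.2, 45.6 and 33.7 CPM in the CTRL hESC libraries and 47.8, 51.4 and 51.1 CPM in those of CDKO hESC. Its iMeLC levels were 353, 226 and 207 CPM among CTRL lines and 295, 279 and 347 CPM among CDKO lines. S100A11 stood at 31.5, 27.0 and 19.4 CPM in CTRL hESC and 31.4, 38.5 and 36.6 CPM in CDKO hESC, and its iMeLC levels were 108, 111 and 125 CPM among CTRL lines and 167, 141 and 139 CPM among CDKO lines. It was the only one of the 10 for which CTRL1101 was the lowest CTRL iMeLC library, and all CDKO libraries lay above all CTRL libraries. The change with stage was 2.72 (SE 0.19) and 2.61 (SE 0.19) for S100A10 and 2.14 (SE 0.15) and 2.07 (SE 0.15) for S100A11, in CTRL and CDKO.

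**Figure D2:**
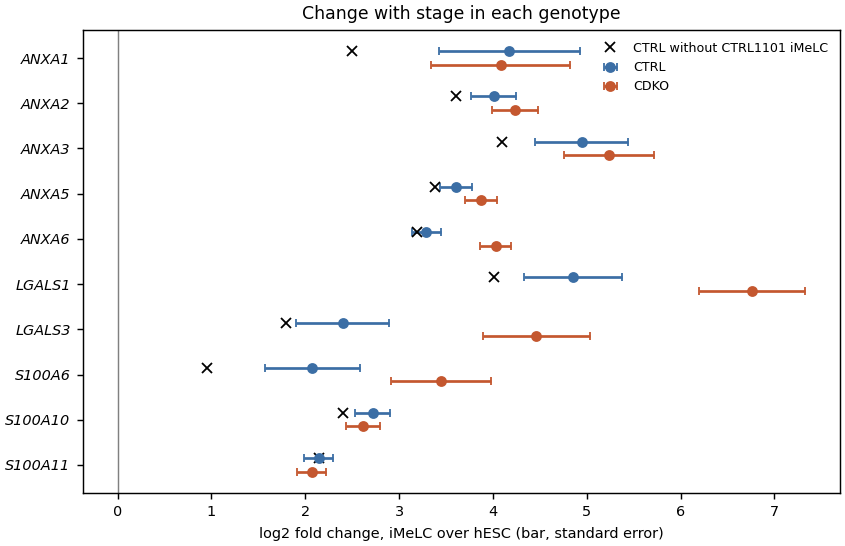
Change with stage of each gene on the log2 scale, iMeLC over hESC, in CTRL (blue) and CDKO (orange), with bars for the standard error and crosses for CTRL without CTRL1101. All values lie above 0. The CDKO value lies above the CTRL value for 7 of 10 genes, and the cross of S100A6 lies at 0.95.

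Per length of exon the order of the 10 differed from their order in counts. The level per kilobase was the CPM divided by the length of all annotated exons merged. In CTRL hESC S100A11 led at 38.2 ± 9.02 CPM per kb (SD, n = 3), followed by S100A10 at 25.8 ± 3.87, S100A6 at 15.2 ± 6.04 and ANXA5 at 8.98 ± 1.74. ANXA2 (2.62 ± 0.488), ANXA6 (2.42 ± 0.223), LGALS1 (1.49 ± 0.588) and ANXA1 (1.09 ± 0.636) followed, and LGALS3 (0.414 ± 0.274) and ANXA3 (0.343 ± 0.111) came last. The ranges of 3 libraries overlapped between S100A11 and S100A10, S100A6 and ANXA5, ANXA2 and ANXA6, LGALS1 and ANXA1, ANXA1 and LGALS3, and LGALS3 and ANXA3, so the order within these pairs is not resolved. In CDKO hESC the order was the same for the first 6, from 52.2 ± 5.46 (S100A11) to 2.04 ± 0.320 (ANXA6) CPM per kb. ANXA1 (1.31 ± 0.0640), LGALS1 (1.07 ± 0.146), ANXA3 (0.558 ± 0.103) and LGALS3 (0.177 ± 0.113) followed, and no neighbours overlapped.

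S100A10 and S100A11 led per length in iMeLC too, and S100A6 was at position 4 in CTRL and position 3 in CDKO. S100A10 (169.9 ± 51.4 CPM per kb) and S100A11 (169 ± 13.6) overlapped in CTRL iMeLC, as did ANXA5 (109 ± 24.9), S100A6 (64.0 ± 58.7), LGALS1 (42.6 ± 31.9) and ANXA2 (42.2 ± 16.1), each with the next. ANXA6 (23.7 ± 3.12), ANXA1 (19.5 ± 22.9) and ANXA3 (10.5 ± 7.88) overlapped likewise, and LGALS3 stood alone at 2.15 ± 1.20. In CDKO iMeLC the levels were 219 ± 22.9 for S100A11 and 199 ± 23.0 for S100A10, which overlapped, then 152 ± 36.2 for S100A6, 121 ± 1.84 for ANXA5 and 117 ± 32.7 for LGALS1, each overlapping the next. ANXA2 (55.3 ± 7.98) and ANXA6 (33.5 ± 6.06) stood clear of their neighbours, ANXA1 (22.3 ± 1.32) and ANXA3 (20.9 ± 2.97) overlapped, and LGALS3 (3.72 ± 0.737) was again last. LGALS1 was the gene that moved furthest up the order, from position 8 in CDKO hESC to position 5 in CDKO iMeLC. Division by the longest annotated transcript instead raised ANXA2 in CTRL iMeLC from 42.2 to 105.5 CPM per kb, from position 6 to position 4 and above S100A6 and LGALS1. On that scale ANXA2 and ANXA6 no longer overlapped in CTRL hESC, S100A10 overlapped S100A6 there, and S100A10 stood above S100A11 in CDKO iMeLC.

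**Figure D3:**
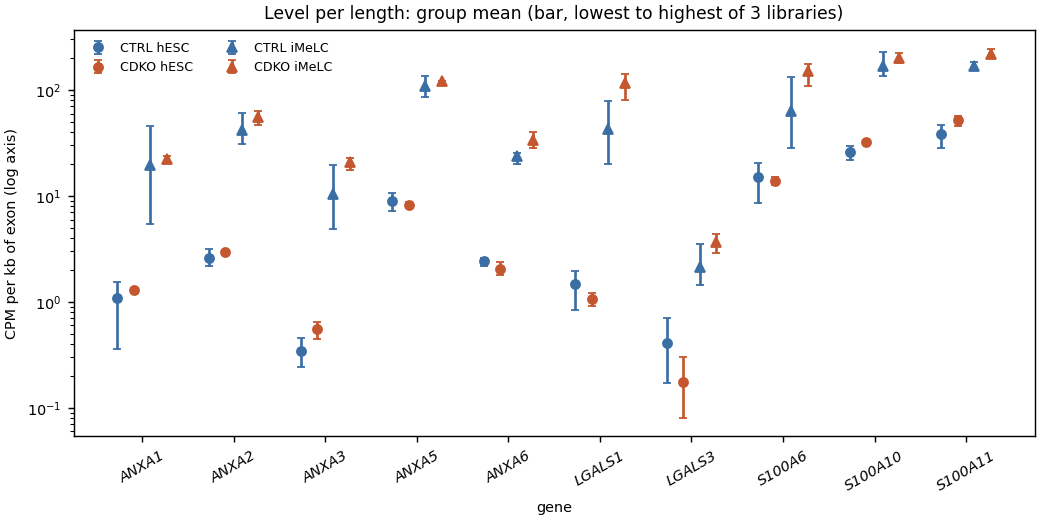
Level per kilobase of exon of each gene in the 4 groups, in CPM per kb on a log axis. Points are means of 3 libraries and bars run from the lowest to the highest library. S100A11 and S100A10 are at the top and LGALS3 and ANXA3 at the bottom in hESC, and in iMeLC the widest bars are those of CTRL for ANXA1, S100A6, LGALS1 and ANXA3.

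CDKO was then compared with CTRL within each stage, a contrast that the choice of genes did not use, although the same libraries enter both. The labels do not say how the libraries of a group relate to separate cultures, so p-values measure the spread between these libraries. In hESC 0 of 10 genes passed the adjusted threshold of 0.05 in edgeR's quasi-likelihood test, where 1.31% of 17222 genes tested passed. The fold change was positive for 5 of 10 genes, as for 49.7% of all genes, with a median log2 of 0.03. S100A10 was the only gene whose libraries did not overlap between the genotypes, being 0.34 higher in CDKO on the log2 scale (SE 0.11, edgeR adjusted p = 0.164), and 10.2% of all genes were higher without overlap. S100A11 differed by 0.46 (SE 0.16, edgeR adjusted p = 0.198) and ANXA3 by 0.71 (SE 0.29, edgeR adjusted p = 0.266). With S100A10 these were the 3 of 10 genes with an unadjusted p under 0.05, as were 16.1% of all genes, and DESeq2 called 0 of 10. LGALS3 differed by -1.26 (SE 0.62, edgeR adjusted p = 0.349) on 4 to 31 counts a library. For the other 6 the difference lay between -0.45 (LGALS1) and 0.29 (ANXA1), with edgeR adjusted p from 0.477 to 0.860.

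CTRL hESC 3 was the lowest CTRL hESC library for 10 of 10 genes, where 36.8% of all genes were lowest in it. The 10 genes summed to 119 CPM in it, against 175 and 167 CPM in CTRL hESC 1 and 2 and 163 to 177 CPM in CDKO hESC. Fibroblast or feeder markers (14 genes such as COL1A1 and THY1) summed to 406 CPM in CTRL hESC 3 and to 490 to 633 CPM in the other hESC libraries, and actin-linked genes (24) to 6838 CPM against 7593 to 8251 CPM. THY1, which was lower in iMeLC, alone held 219.6 CPM in CTRL hESC 3 and 256 to 391.5 CPM in the other hESC libraries. LUM, DCN, POSTN and FAP held at most 1.81 CPM in any hESC library. The sum thus does not show whether fibroblasts or feeders were present. The part of both lists in the difference was not tested. Without CTRL hESC 3 the number of genes with a positive difference was 4 of 10 and none was called. Without CTRL hESC 2 S100A10 was called (0.45, edgeR adjusted p = 0.04996, range over the 11 alternatives 0.04996 to 0.552).

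In iMeLC 0 of 10 genes passed the test with all libraries, where 0.345% of 19999 genes passed. All 10 differences were positive, as were 46.9% of all genes, and their median log2 was 0.42 beside -0.03 for all genes. LGALS1 had the largest difference, 1.43 (SE 0.48, edgeR adjusted p = 0.179), followed by S100A6 at 1.22 (SE 0.56, edgeR adjusted p = 0.274) and ANXA3 at 0.97 (SE 0.45, edgeR adjusted p = 0.278). The CDKO libraries of LGALS1, ANXA6 (0.47, SE 0.15, edgeR adjusted p = 0.170) and S100A11 (0.35, SE 0.11, edgeR adjusted p = 0.164) lay above all CTRL libraries, 3 of 10 genes beside 14.3% of all genes. The same 3 had an unadjusted p under 0.05, as had 19.8% of all genes, and DESeq2 called 0 of 10. LGALS3 differed by 0.76 (SE 0.37), ANXA2 by 0.36 (SE 0.24), S100A10 by 0.20 (SE 0.19), ANXA1 by 0.17 (SE 0.71) and ANXA5 by 0.11 (SE 0.15), with edgeR adjusted p from 0.293 to 0.909. A difference that misses the threshold does not show that the genotypes are alike.

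**Figure D4:**
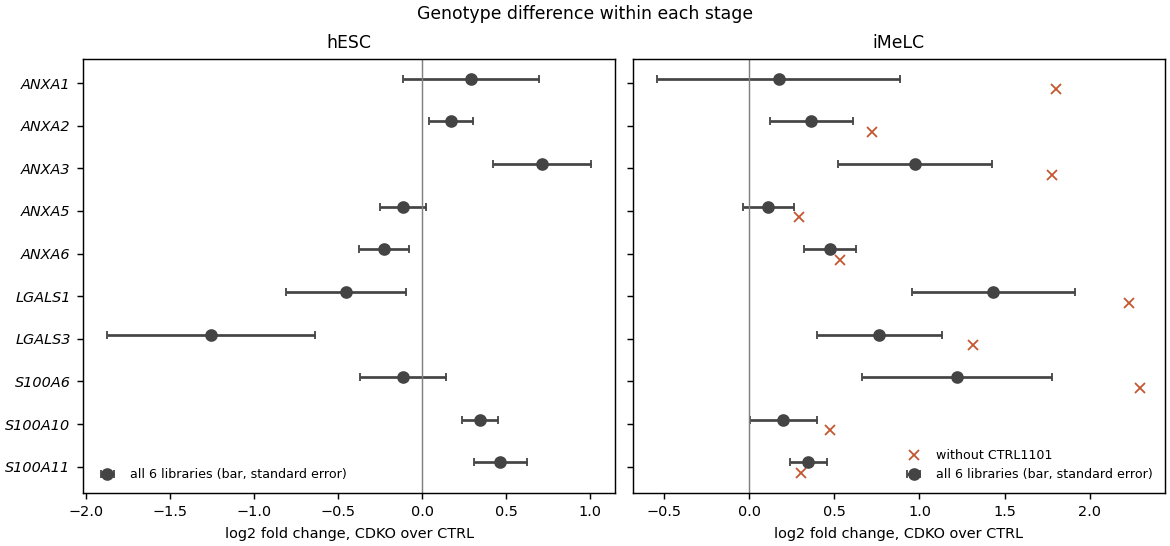
Difference between genotypes, CDKO over CTRL on the log2 scale, within hESC (left) and iMeLC (right). Points are fits on all 6 libraries with bars for the standard error, and crosses are the iMeLC fit without CTRL1101. In iMeLC all 10 points are positive, and the crosses lie further right for 9 of 10 genes, at 1.80 for ANXA1 and 2.30 for S100A6. CTRL1101 was the highest CTRL iMeLC library for 9 of 10 genes, so such a shift follows from leaving it out.

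The result in iMeLC rested on CTRL1101, and since counts over all of TET1 do not show the genotype, the label of that library was not tested here. DYSF, a gene called between genotypes with and without CTRL1101, stood in it at 15.1 CPM, beside 14.7 and 14.8 CPM in the other CTRL lines and 25.3 to 26.4 CPM in CDKO. The call with CTRL1101 counted it as CTRL, so picking DYSF favours such a level, which cannot test the label of CTRL1101. That library was the highest CTRL iMeLC library for 9 of 10 genes, where 38.5% of all genes were highest in it, and at least 2 times the mean of CTRL1106 and CTRL1109 for 5 of 10, where 5.72% of all genes were. The 5 were ANXA1 (7.33 times), S100A6 (4.37 times), ANXA3 (3.26 times), LGALS1 (3.24 times) and LGALS3 (2.42 times). It lay within the CDKO range for ANXA2, ANXA3, LGALS3 and S100A6. All 3 CDKO libraries lay above both CTRL1106 and CTRL1109 for 10 of 10 genes, and for 27.0% of all genes. Summed over the 10, CTRL1101 held 2079 CPM, CTRL1106 and CTRL1109 held 1137 and 1182 CPM, and the CDKO libraries held 1875 to 2040.0 CPM.

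Without CTRL1101, 7 of 10 genes were called higher in CDKO iMeLC, where 7.1% of 20697 genes were called higher and 12.8% in either direction. The fit then holds 2 CTRL libraries. CTRL1101 was singled out on these same values, as the highest CTRL iMeLC library for 9 of 10 genes. Leaving it out therefore raises their difference by construction, and the 7 calls are no independent result. S100A6 was higher by 2.30 (edgeR adjusted p = 0.00447, range over alternatives 0.00447 to 0.538), LGALS1 by 2.23 (0.00967, range 0.00967 to 0.462) and ANXA1 by 1.80 (0.00288, range 0.00288 to 0.969). ANXA3 was higher by 1.78 (edgeR adjusted p = 0.00658), LGALS3 by 1.32 (0.0185), ANXA2 by 0.72 (0.0215) and S100A10 by 0.47 (0.0370), each the lowest adjusted p of its 11 alternatives, whose highest were 0.549, 0.589, 0.704 and 0.881. ANXA5, ANXA6 and S100A11 were not called. Leaving out CTRL1106 instead turned ANXA1 to -0.22 and ANXA5 to -0.04, leaving out CTRL1109 turned ANXA1 to -0.27, and neither gave a call. Without CTRL1101 the median difference of the stage change was 0.93, beside 0.28 with it.

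**Figure D5:**
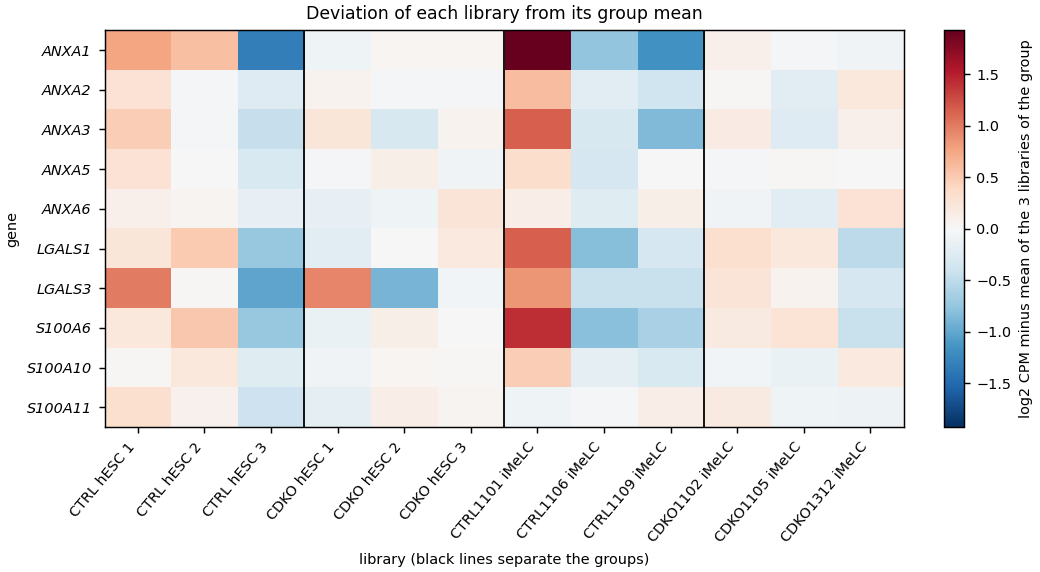
Deviation of each library from the mean of its group, on the log2 scale, for the 10 genes (rows) and 12 libraries (columns), red for above and blue for below. CTRL hESC 3 is below its group mean for all 10 genes and CTRL1101 is above for 9 of 10, up to 1.93 for ANXA1.

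Other genes stood high in CTRL1101 with them. Of genes singled out after their values were seen, VIM, the intermediate filament protein vimentin, stood at 1986 CPM in CTRL1101, 531 and 709 CPM in the other CTRL iMeLC libraries and 1634 to 2033 CPM in CDKO iMeLC. AHNAK, the giant scaffold bound by the ANXA2 and S100A10 complex, stood at 611 CPM against 115 and 174 CPM, with 476 to 653 CPM in CDKO. Actin-linked mesenchymal genes (24) summed to 16570.0 CPM in CTRL1101, 8515 and 8825 CPM in CTRL1106 and CTRL1109, and 14480.0 to 15850.0 CPM in CDKO. Fibroblast or feeder markers (14) summed to 1322 CPM, 591 and 651 CPM, and 1063 to 1433 CPM in the same order, and none was at 0 in a whole group. Not every gene of the actin-linked list was highest in CTRL1101. The epithelial cadherin CDH1, also in that list, stood at 341 CPM in CTRL1101 against 369 and 275 CPM in CTRL1106 and CTRL1109. CD9 stood at 124 CPM against 158 and 251 CPM, and CD63 at 149.5 CPM against 142 and 157 CPM. Amnion or surface ectoderm markers (13) summed to 27.8 CPM in CTRL1101, 15.1 and 10.7 CPM in CTRL1106 and CTRL1109, and 26.2 to 40.5 CPM in CDKO iMeLC. The iMeLC markers did not follow this order, at 1037 CPM in CTRL1101, 361 CPM in CTRL1106 and 1410.0 CPM in CTRL1109, nor did definitive endoderm markers, at 237, 54.8 and 491 CPM and 732 to 1596 CPM in CDKO. CER1, which enters both sums, stood at 186, 32.3 and 352 CPM in the same CTRL libraries and at 565 to 1234 CPM in CDKO. The mitochondrial share of counts was 2.498% in CTRL1101 and 3.27% to 4.04% in the other iMeLC libraries. The part of these markers and of RNA quality in the results was not tested.

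Of the other annexins 8 had rows, and 6 passed the expression filter over both stages. With stage 4 rose and 1 fell in CTRL, and 5 rose and 0 fell in CDKO, where 29.5% and 32.1% of all genes rose and 19.9% and 27.7% fell. Under library totals alone 21.2% rose and 32.9% fell in CTRL, and 22.2% rose and 43.4% fell in CDKO. ANXA8 changed by 3.49 (edgeR adjusted p = 0.00114) and 4.35 (9.59e-05), though it stood at 0.0550 to 0.289 CPM in hESC and at most 3.87 CPM in iMeLC. ANXA8 and ANXA8L1 did not pass the filter in hESC alone and entered through iMeLC. Their rise was thus close to fixed by the filter, and the counts of rising annexins include ANXA8 in both genotypes. ANXA7, an annexin of secretory vesicles, changed by 1.48 (1.31e-07) and 1.90 (1.06e-08), and ANXA4 by 1.55 (5.87e-06) and 1.75 (1.53e-06). ANXA9 changed by -1.64 in CTRL (0.0185). ANXA10 and ANXA13 held at most 0.0917 and 0.256 CPM in any library. Between genotypes 0 of 4 tested were called in hESC and 0 of 6 in iMeLC, with ANXA11 nearest in hESC (-0.36, edgeR adjusted p = 0.128) and ANXA7 in iMeLC (0.40, edgeR adjusted p = 0.136). DESeq2 called 0 of 4 in hESC and 3 of 6 higher in iMeLC (ANXA4, ANXA7 and ANXA8L1), where it called 3.78% of all genes higher and 4.54% lower. Without CTRL1101 edgeR called 3 of 6 higher in iMeLC (ANXA7, ANXA8 and ANXA8L1), beside 7.1% of all genes.

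Of the other S100 genes 17 had rows and 7 passed, of which 2 rose and 1 fell in CTRL and 3 rose and 1 fell in CDKO. Of all genes 29.5% rose and 19.9% fell in CTRL, and 32.1% rose and 27.7% fell in CDKO. S100A4, a calcium-binding protein of motile mesenchymal cells, changed by 3.51 (edgeR adjusted p = 4.24e-04) and 4.60 (2.92e-05), and S100A13, which takes part in release of signal-less proteins, by 1.44 (1.11e-04) and 2.03 (4.88e-06). S100A16 rose in CDKO (1.71, 0.00553). The falling gene was S100PBP, which encodes a binding partner of S100P and not an S100 protein (-0.63 and -0.70, adjusted p 3.73e-04 and 1.33e-04). The myeloid genes S100A8, S100A9 and S100A12 held at most 0.0973 CPM in any library. S100A4 in iMeLC was likewise highest among CTRL libraries in CTRL1101, at 8.79 CPM in CTRL1101, 1.88 and 2.02 CPM in the other CTRL libraries and 9.30 to 15.8 CPM in CDKO, a genotype difference of 1.60 (SE 0.58, edgeR adjusted p = 0.204). No S100 gene of this list was called between genotypes, 0 of 4 in hESC and 0 of 8 in iMeLC, by edgeR or by DESeq2. Without CTRL1101 edgeR called 1 of 9 higher in iMeLC, S100A4 at 2.70, where 7.1% of all genes were called higher. Of 13 other galectins 4 passed over both stages, and 2 rose in CTRL and 1 in CDKO: LGALS12 (3.17, 3.51e-05, and 2.44, 1.65e-04) and, in CTRL, the tandem-repeat galectin LGALS8 (0.48, 0.0104). No other galectin was called between genotypes, 0 of 3 in hESC and 0 of 6 in iMeLC.

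Among partners of annexins and S100 proteins (21 with rows, 19 passing) 10 rose and 1 fell with stage in CTRL and 13 rose and 2 fell in CDKO. The shares over all genes were 29.5% and 19.9% in CTRL and 32.1% and 27.7% in CDKO. MYOF, a ferlin of membrane repair, changed by 3.65 (edgeR adjusted p = 4.99e-05) and 4.66 (5.17e-06), and CAV1, the caveolar coat protein, by 3.10 (3.68e-05) and 3.07 (2.93e-05). The calpain subunit CAPN2 changed by 2.78 (3.82e-06) and 3.19 (1.06e-06), and the plasminogen receptor PLGRKT by 3.13 (4.20e-08) and 2.86 (7.04e-08). PLG itself, which the ANXA2 and S100A10 complex can bind, held at most 0.205 CPM. In hESC 0 of 19 were called between genotypes, and DESeq2 called 1, beside 1.8% of all genes higher and 1.79% lower. That gene was DYSF (0.61, DESeq2 adjusted p = 0.0343), which differed by 0.61 in edgeR (SE 0.18, edgeR adjusted p = 0.136). Its adjusted p in hESC ran from 0.00395 with no expression filter to 0.387 without CDKO hESC 2. In iMeLC 1 of 19 was called, DYSF, another ferlin of membrane repair, with 15.1, 14.7 and 14.8 CPM among CTRL lines and 25.6, 25.3 and 26.4 CPM among CDKO lines (0.76, SE 0.10, edgeR adjusted p = 0.0370). Of all genes 0.345% were called there. The call of DYSF was kept without CTRL1101 (adjusted p = 0.0102) and lost without any other iMeLC library (0.0626 without CTRL1106, 0.0672 without CTRL1109, 0.221 without CDKO1102, 0.155 without CDKO1105 and 0.173 without CDKO1312), its log2 difference staying at 0.75 to 0.79. Over all alternatives in iMeLC its adjusted p ran from 7.46e-10 with DESeq2 to 0.221. Without CTRL1101 8 of the 19 were called higher and 1 lower, beside 7.1% and 5.69% of all genes.

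Of galectin ligands and binding proteins 15 of 16 passed the filter, and of actin-linked mesenchymal genes 24 of 24. Their counts stand beside the shares over all genes of 29.5% rising and 19.9% falling in CTRL and 32.1% and 27.7% in CDKO. Of the ligands 10 rose and 2 fell in CTRL and 11 rose and 2 fell in CDKO, among them the hyaluronan receptor CD44 (3.07, edgeR adjusted p = 4.36e-07, and 3.20, 2.30e-07) and fibronectin FN1 (2.13, 1.69e-06, and 2.77, 1.34e-07), while the mucin MUC1 fell (-1.41, 0.00272, and -1.96, 2.79e-04). Of the actin-linked genes 20 rose and 1 fell in CTRL and 21 rose and 0 fell in CDKO, among them the cadherin CDH2 (3.52, 1.04e-06, and 3.67, 5.16e-07) and VIM (2.92, 7.39e-05, and 3.25, 2.57e-05). That list is not purely mesenchymal. It holds the epithelial cadherin CDH1, with mean levels of 230 CPM in CTRL hESC and 328 CPM in CTRL iMeLC, and 228 and 344 CPM in CDKO. Under library totals alone the CTRL counts of the actin-linked genes were 12 and 2 (all genes 21.2% and 32.9%), and without CTRL1101 they were 15 and 3 (all genes 29.7% and 21.5%). Between genotypes 0 of either list were called in hESC or iMeLC, the nearest being the laminin chain LAMB1 (0.76, SE 0.13, edgeR adjusted p = 0.0785) and FN1 (0.84, SE 0.17, edgeR adjusted p = 0.104) in iMeLC. DESeq2 called 5 ligands higher and 1 lower and 2 actin-linked genes higher in iMeLC, beside 3.78% of all genes higher and 4.54% lower. Without CTRL1101 edgeR called 9 ligands higher and 1 lower and 20 actin-linked genes higher, beside 7.1% of all genes higher and 5.69% lower.

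The 5 genes whose pattern over the 12 libraries was most like the mean of the 10, among 9977 genes of at least 10 CPM on average, were MRPL1, ARHGAP10, PSMA5, ASS1 and SMYD2. Likeness was the root mean square difference of log2 CPM after each gene was centred on its own mean, and it was 0.255 for MRPL1 and 0.361 for SMYD2. Of the 10 themselves ANXA2 lay nearest their mean (0.297) and LGALS1 furthest (1.09). MRPL1, a subunit of the mitochondrial ribosome, stood at 1.88 to 2.25 CPM in hESC, at 30.8 CPM in CTRL1101, 20.3 CPM in CTRL1106 and 20.1 CPM in CTRL1109 and at 28.2 to 36.8 CPM in CDKO iMeLC. PSMA5, a proteasome core subunit, stood at 10.1 to 15.8 CPM in hESC and 114 to 175 CPM in iMeLC. ARHGAP10 stood at 4.62 to 6.20 CPM in hESC and 34.0 to 75.3 CPM in iMeLC. ASS1 stood at 5.78 to 9.74 CPM and 36.6 to 123 CPM, and SMYD2 at 2.94 to 7.91 CPM and 38.9 to 77.0 CPM, in the same order.

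Since MRPL1 and PSMA5 serve functions common to all cells, the stage change was also looked at in housekeeping genes, a choice made after values were seen. ARHGAP10, ASS1 and SMYD2, also among the most alike, did not enter that choice. Of 76 cytoplasmic ribosomal protein genes 14 changed by at least 2 on the log2 scale in CTRL and 22 in CDKO, with a median of 0.98 and 1.33 and a maximum of 4.49 and 4.85 for RPL27. Of 35 proteasome subunit genes 9 and 12 did so, with a median of 1.02 and 1.06, and PSMA3 stood highest at 3.71 and 3.99. The stage change also ran with exon structure: the median in CTRL was -0.31 for genes with under 1 exon junction per kilobase of transcript, 0.01 for 1 to 2, 0.31 for 2 to 4, 0.51 for 4 to 6 and 0.66 for 6 and over. The 95th percentile in CTRL was 1.27, 1.54, 1.80, 2.27 and 2.34 in the same order. S100A10 held 1.66 junctions per kilobase, S100A11 3.37, LGALS3 4.36, S100A6 4.46, ANXA1 4.98 and LGALS1 5.36, and ANXA5 (6.81), ANXA3 (7.24), ANXA2 (7.76) and ANXA6 (9.64) were in the top class. With CTRL1101 included, 9 of the 10 lay above the 95th percentile of their class in CTRL, the exception being S100A6. The genes were picked for a large change in this same contrast, so nothing follows from that count. What part the tables' processing or library preparation had in the stage change was not tested.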

How the data were processed

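RNA from 12 UCLA1 libraries was purified with an RNeasy micro kit and made into stranded total RNA libraries with a SMARTer kit, per the labels' protocols. The authors deposited 2 tables of raw counts per gene symbol, 1 for hESC and 1 for iMeLC. FastQC, cutadapt, edgeR and GRCh38 are named in the submitters' processing notes. Aligner, counter, annotation and use of strand were not given in the sources used here. Columns of the hESC table, named WT and KO 1 to 3, were read as the CTRL and CDKO groups with no line.

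From the deposited counts, genes were kept by filterByExpr, scaled by TMM and tested with edgeR 4.0.16 (R 4.3.3) by its quasi-likelihood test, with Benjamini-Hochberg adjustment over the whole table and a threshold of 0.05. Genotypes were compared within a stage on 6 libraries, and stages in a fit over 12. DESeq2 1.42.0, RLE scaling, library totals, no filter and leaving out each library were alternatives. The test was tested on simulated data. Intervals of precision were not computed for single counts, and library totals were lower in hESC.

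The 10 genes and the lists were chosen with earlier results of these data known. Named besides them were up to 4 genes a list and comparison (smallest adjusted p between genotypes, largest change with stage at 1 CPM or more), the 5 genes most alike, and genes said to be singled out. The low-level genes ANXA10, ANXA13, S100A8, S100A9, S100A12 and PLG, with S100PBP, were named after their values were seen. Of 36762 symbols 34217 matched exactly 1 gene of GENCODE 29. In the lists, SMARCA3 and T are older names of HLTF and TBXT, and CD44, ITGB1, CER1 and S100A4 stand in more than 1 list. Promoters came from RefSeq GRCh38.p14.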

Additional observations from a re-analysis of the deposited data

How the results depend on the processing

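The 10 genes were higher in iMeLC than in hESC under every alternative run, in both genotypes. Their median log2 change in CTRL, 3.45, ran from 2.84 (without CTRL1101) to 3.57 on leaving out 1 library, and in CDKO it stayed between 3.67 and 4.13. The median difference of the stage change, 0.28, ran from 0.0713 (without CTRL hESC 1) to 0.93 (without CTRL1101). Library totals alone moved the median stage change of all genes to -0.31 in CTRL and -0.46 in CDKO, and those of the 10 to 3.15 and 3.67. In hESC the count of the 10 called, 0, became 1 with no expression filter (S100A11, 0.44, edgeR adjusted p = 0.0122, range over alternatives 0.0122 to 0.485) and 0 to 1 on leaving out 1 library. Over all genes 226 were called in hESC, 618 with DESeq2, 1228 with no expression filter, 72 in the fit over 12 libraries, and 5 (without CDKO hESC 2) to 493 (without CTRL hESC 2) on leaving out 1 library. In iMeLC the count of the 10 called, 0, became 1 in the fit over 12 libraries (LGALS1, 1.46, edgeR adjusted p = 0.0498, range over alternatives 0.00967 to 0.462) and 0 to 7 (without CTRL1101) on leaving out 1 library. Over all genes 69 were called in iMeLC, 1566 with DESeq2, 428 with no expression filter, 1310 in the fit over 12 libraries, and 15 (without CDKO1102) to 2646 (without CTRL1101) on leaving out 1 library. The causes of these shifts were not tested. LGALS3 rested on 4 to 31 counts a library in hESC, which limits the precision of its fold changes. No paired analysis was possible because the hESC columns carry the numbers 1 to 3 and no line, and the CTRL and CDKO iMeLC lines share no number. The comparison of protein sequences was not run.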
